A study of Mus musculus with 4 samples.

Results

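The insulin-like growth factor (IGF) system of growing bone was examined in calvarial bones as 10 genes taken by name: the ligand gene *Igf1*, the receptor genes *Igf1r* and *Igf2r*, and the binding protein genes *Igfbp1* to *Igfbp7*. All 10 were among the 23946 genes quantified, and 9 of them, all but *Igfbp1*, reached 1 FPKM in every library. FPKM counts fragments relative to transcript length and to the mapped reads of a library, so levels of different genes can be set side by side. RNA came from the frontal and the parietal bone of wild-type (WT) and *Twist1*+/- mice on the C57BL/6J background at postnatal day 21. *Twist1*+/- animals carry 1 inactive allele of *Twist1*, a basic helix-loop-helix transcription factor of the skeletal mesenchyme, and the labels give 12 mice per strain. There were 4 libraries, 1 for each genotype and bone, so the differences below have no replicate behind them and come without p-values. The methods of the study speak of replicates, and whether each deposited value pools them is not stated. The frontal bone is a neural crest derivative, the parietal bone a mesodermal one, and the comparisons ask how gene expression differs between genotypes in each bone and between bones in each genotype.

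IGF1 is made by osteoblasts, chondrocytes, macrophages and other cells of the skeleton as well as by the liver, and signals through the receptor tyrosine kinase IGF1R to PI3K, Akt and mTOR. IGF2R takes up and degrades IGF2 and carries no kinase domain. The IGF binding proteins hold the ligands outside the cell, lengthen their life and limit or localise their access to the receptor, and proteases such as PAPP-A release them. IGF signalling is known for driving bone growth around weaning.

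*Twist1* stood at 59.0 FPKM in WT and 30.4 FPKM in *Twist1*+/- frontal bone, but at 52.5 FPKM in WT parietal bone and 50.7 FPKM in the other parietal library, which is therefore called the parietal library labelled *Twist1*+/-. Directions drawn from it rest on its label. *Col1a1*, which bone expresses abundantly, is listed at 0 in 3 libraries while osteocalcin (*Bglap*) ranged from 5220 to 7982 FPKM, so a listed 0 cannot be read as absence. FPKM values do not give the depth of a library. Relative depths read from genes at very low values contradicted each other between pairs of libraries, so none is given. The bones also held RNA of other tissues in unequal amounts: the summed FPKM of 11 skeletal muscle markers ran from 118 in WT frontal to 3801 in WT parietal bone, that of 10 meningeal markers from 101 in WT parietal to 2066 in WT frontal bone, and that of 10 nasal epithelium markers from 60.2 in WT parietal bone to 1795 in the parietal library labelled *Twist1*+/-. The nasal marker *Scgb1a1* is listed at 0 in all 4 libraries.

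The ligand gene *Igf1* varied most among the 9 expressed members. In mm9 the gene spans bases 87321010 to 87399792 of the forward strand of chromosome 10. It was at 28.1 FPKM in WT frontal bone, 77.6 FPKM in WT parietal bone, 26.3 FPKM in *Twist1*+/- frontal bone and 18.6 FPKM in the parietal library labelled *Twist1*+/-. WT parietal bone stood above the other libraries, while the remaining 3 followed each other at steps of less than 1.5-fold. Between the parietal bones *Igf1* was 4.18-fold lower in the library labelled *Twist1*+/- (log2 ratio -2.06). Of the 7267 genes that reached 10 FPKM in either library and were above 0 in both, only 46 had a lower ratio. This count and the later ones out of genes at or above 10 FPKM leave out genes listed at 0 in either library. Between the parietal bones *Col1a1* is such a gene. Between the frontal bones the log2 ratio of *Igf1* was -0.10. In WT mice it was 2.76-fold higher in parietal than in frontal bone (log2 ratio 1.47), and in *Twist1*+/- mice its log2 ratio of parietal to frontal bone was -0.50.

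A site near the start of *Igf1* is shown because Twist1 belongs to a family of factors that bind E-boxes, written CANNTG. In the 250 bases before the RefSeq start (GRCm38.p6 table, placed on mm9 by exact match), at chr10:87323606-87323855 and overlapping exons of 2 annotated transcripts, there was 1 such match, at position -157, shown in capitals within 30 bases of the forward strand.
Igf1 site: gggaagagaggtCAGCTGcctagagcgatt
The motif reads the same in form on both strands. It occurred in 9 of 11 such windows of the 10 genes and in 66.2% of 32851 windows of all genes, so most windows of this length hold it. A match is a description of the letters and says nothing of binding.

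The GC content of a gene moved with its ratio in the comparison of parietal bones. The 12554 genes used had a known GC content, at least 1 FPKM in either library and a value above 0 in both. Across them, though they are not independent replicates, Spearman's rho of GC content against the log2 ratio was 0.55. The median log2 ratio ran from -0.59 in the lowest of 20 GC groups to 0.70 in the highest. *Igf1* has the lowest GC content of the 10 genes (38.1% in its longest coding transcript). After the median of its GC group was subtracted, its log2 ratio between the parietal bones was -1.47, a 2.77-fold difference that no longer passed 3-fold. Of the 628 genes in that group, 15 had a lower ratio than *Igf1*. In the *Twist1*+/- comparison of bones the same subtraction moved its log2 ratio from -0.50 to 0.01, while between the WT bones the log2 ratio was 1.38 after it.

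*Igf1* is also a product of macrophages, whose markers differed between the same libraries. The summed FPKM of 8 macrophage markers, among them *Csf1r* and *C1qa*, was 411 in WT frontal, 768 in WT parietal, 371 in *Twist1*+/- frontal and 578 in the parietal library labelled *Twist1*+/-, with none at 0. In WT parietal bone 8 of 8 were higher than in WT frontal bone, and 0 of 8 were higher in the parietal library labelled *Twist1*+/- than in WT parietal bone, with a median difference of -0.70 in log2(FPKM + 1). Between the frontal bones 2 of 8 were higher in *Twist1*+/-, with a median difference of -0.25. Between the *Twist1*+/- bones 5 of 8 were higher in parietal bone, with a median difference of 0.39, where *Igf1* had a log2 ratio of -0.50 as deposited. The skeletal muscle sum was also highest in WT parietal bone, at 3801 FPKM against 1878 FPKM in the parietal library labelled *Twist1*+/-. Between the frontal bones it went from 118 FPKM in WT to 1462 FPKM in *Twist1*+/-, with 11 of 11 markers higher, where *Igf1* had a log2 ratio of -0.10. The part of either cell type in the *Igf1* difference was not tested. In bulk tissue, fewer cells of a type and less RNA per cell cannot be told apart.

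**Figure D1:**
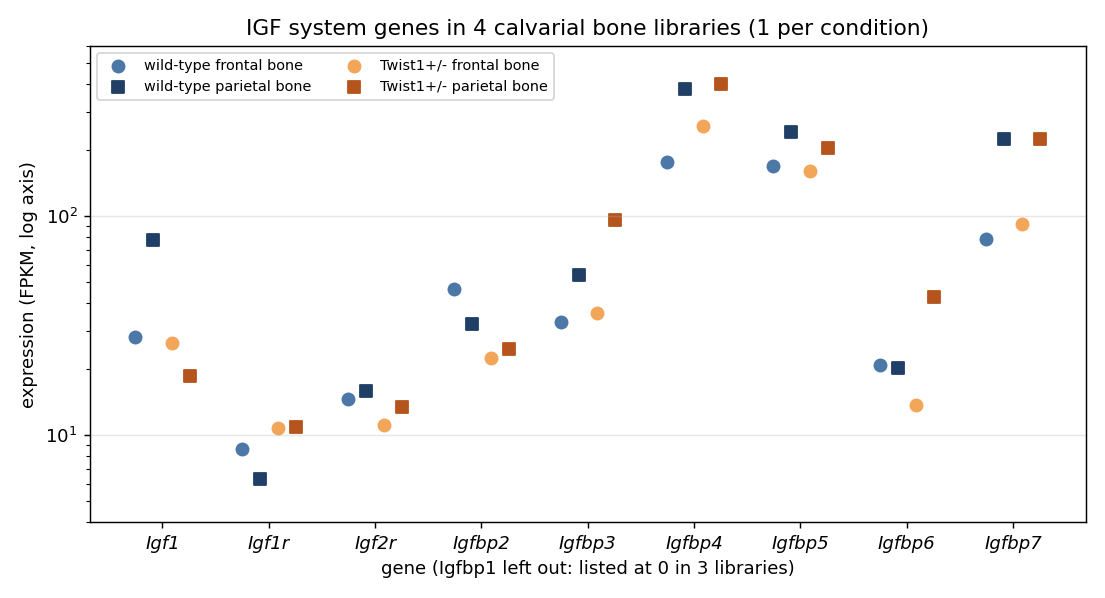
FPKM (log axis) of 9 IGF system genes in each of the 4 libraries, with circles for frontal and squares for parietal bone and 1 point per library, so without error bars. *Igf1* is highest in WT parietal bone at 77.6 FPKM, *Igfbp6* is highest in the parietal library labelled *Twist1*+/- at 43.0 FPKM, and the points of *Igf2r* lie closest together.

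The receptor genes varied less and were the lowest members after *Igfbp1* in every library. *Igf1r* (chromosome 7, 75097713 to 75371484, forward strand) was at 8.67 FPKM in WT frontal, 6.33 in WT parietal, 10.8 in *Twist1*+/- frontal and 10.8 in the parietal library labelled *Twist1*+/-. Both libraries labelled *Twist1*+/- were above both WT libraries. The log2 ratio was 0.78 between the parietal and 0.32 between the frontal bones, with neighbouring libraries less than 1.5-fold apart. *Igf2r* (chromosome 17, 12875272 to 12962530, reverse strand), the scavenger of IGF2, was at 14.6, 15.9, 11.2 and 13.4 FPKM in the same order. Its highest level was 1.43 times its lowest, the narrowest range of the 9 expressed members. *Igf2r* exceeded *Igf1r* 1.68-fold in WT frontal bone and 2.52-fold in WT parietal bone. It did so 1.03-fold in *Twist1*+/- frontal bone and 1.24-fold in the parietal library labelled *Twist1*+/-. No scaling of a library can alter this ratio. In each bone it was lower in the library labelled *Twist1*+/- than in the WT library.

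The binding protein genes held the highest levels of the system. *Igfbp4* (chromosome 11, 98902558 to 98913969), whose product restrains IGF action until PAPP-A cleaves it, was the highest of the 10 in every library. It was at 177 FPKM in WT frontal, 381 in WT parietal, 260 in *Twist1*+/- frontal and 401 in the parietal library labelled *Twist1*+/-. Parietal bone was above frontal bone in both genotypes, by 2.16-fold in WT and 1.55-fold in *Twist1*+/- mice. With the GC trend subtracted, *Igfbp4* was 2.44-fold higher in parietal bone in WT and 1.23-fold higher in *Twist1*+/- mice. Between the parietal bones its log2 ratio was 0.07 as deposited and -0.50 with the GC trend subtracted, and between the frontal bones it was 0.56.

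*Igfbp5* (chromosome 1, 72904506 to 72921458), a binding protein that is stored in bone matrix, was at 169 FPKM in WT frontal, 243 in WT parietal, 162 in *Twist1*+/- frontal and 204 in the parietal library labelled *Twist1*+/-. It ranked second of the 10 genes in 3 libraries and fell behind *Igfbp7*, by 1.10-fold, in the last. Neighbouring libraries were less than 1.5-fold apart. *Igfbp2* lies 5457 bases away on the opposite strand and did not share this order.

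*Igfbp7* (chromosome 5, 77778265 to 77837070), a relative with weak affinity for IGF that is known in vessels and stroma, differed more between the bones than between the genotypes. It was at 78.3 FPKM in WT frontal and 91.8 FPKM in *Twist1*+/- frontal bone, against 226 FPKM in WT parietal bone and 225 FPKM in the parietal library labelled *Twist1*+/-. Parietal bone was above frontal bone 2.88-fold in WT mice and 2.45-fold in *Twist1*+/- mice, while the log2 ratio between genotypes was -0.01 in parietal and 0.23 in frontal bone. With the GC trend subtracted, the WT difference between bones grew to a log2 ratio of 1.70, past 3-fold. The *Twist1*+/- difference between bones fell to a log2 ratio of 0.97, below 2-fold, and the parietal genotype ratio of *Igfbp7* became -0.58. It was the only member sharing exon sequence with other annotated genes, over 85 bases on the opposite strand. The summed FPKM of 10 endothelial markers was 193, 203, 211 and 257 in WT frontal, WT parietal, *Twist1*+/- frontal and the parietal library labelled *Twist1*+/-, with no marker at 0, and its part in the *Igfbp7* levels was not tested.

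*Igfbp3* (chromosome 11, 7106089 to 7113926), the main IGF carrier of the circulation, was at 32.9 FPKM in WT frontal, 54.1 in WT parietal, 36.2 in *Twist1*+/- frontal and 96.3 in the parietal library labelled *Twist1*+/-. It was highest in the last library, 1.78-fold above WT parietal bone and 2.66-fold above *Twist1*+/- frontal bone, and 50 of 7097 genes at or above 10 FPKM had a higher ratio in that second comparison. Subtracting the GC trend left the parietal genotype ratio of *Igfbp3* at a log2 value of 0.77. Its neighbour *Igfbp1*, 3539 bases away on the opposite strand and known as a liver product, was at 0.0179 FPKM in WT frontal bone and is listed at 0 in the other 3 libraries. Of 10 liver markers, *Ttr*, which the choroid plexus also makes, ran from 9.23 FPKM in the parietal library labelled *Twist1*+/- to 23.7 FPKM in WT parietal bone and made up most of the list's sum. *Alb* was at or below 0.122 FPKM, and between 3 and 7 of the 10 are listed at 0 in a library.

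*Igfbp2* (chromosome 1, 72871077 to 72899048), a carrier expressed by osteoblasts and by meninges and brain, was at 46.6 FPKM in WT frontal, 32.3 in WT parietal, 22.6 in *Twist1*+/- frontal and 24.6 in the parietal library labelled *Twist1*+/-. It was below wild type in both bones, 2.06-fold in frontal and 1.31-fold in parietal bone, although the parietal log2 ratio moved from -0.39 to 0.00 when the libraries were scaled to the same *Gapdh* value and to -1.09 with the GC trend subtracted. In the frontal comparison 75 of 7060 genes at or above 10 FPKM had a lower ratio. The summed level of the 10 meningeal markers moved with the frontal difference, from 2066 FPKM in WT to 380 FPKM in *Twist1*+/- bone. Most of that sum was *Ptgds*, at 1974 and 327 FPKM, and 2 of 10 markers were higher in *Twist1*+/- frontal bone. Between the parietal bones the meningeal sum was 101 FPKM in WT and 487 FPKM in the library labelled *Twist1*+/-, the opposite direction to *Igfbp2* as deposited. The summed FPKM of 10 brain markers was 373 and 363 in WT and *Twist1*+/- frontal bone and 56.0 and 340 in the corresponding parietal libraries. The part of these tissues in the *Igfbp2* levels was not tested.

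*Igfbp6*, a binding protein with a preference for IGF2, was, as deposited, the only member whose genotype ratio passed 1.5-fold in opposite directions in the 2 bones. It was at 21.0 FPKM in WT frontal, 20.2 in WT parietal, 13.8 in *Twist1*+/- frontal and 43.0 in the parietal library labelled *Twist1*+/-. The WT bones were close, at a log2 ratio of -0.05, and both *Twist1*+/- libraries lay outside them. Between the parietal bones it was 2.12-fold higher in the library labelled *Twist1*+/-, between the frontal bones 1.52-fold lower in *Twist1*+/-, and between the *Twist1*+/- bones 3.11-fold higher in parietal bone (log2 ratio 1.64), a ratio that 29 of 7097 genes at or above 10 FPKM exceeded. *Igfbp6* is rich in GC (60.7%), and with the GC trend subtracted these log2 ratios were 0.38 in the parietal, -0.70 in the frontal and 1.22 in the *Twist1*+/- comparison, so the directions held and the last no longer passed 3-fold. Its 250 bases before the RefSeq start, at chr15:101974367-101974616 of mm9 on the forward strand, held 1 CANNTG match at position -173, in capitals. They are shown as the promoter window of the member with opposite genotype ratios, and they overlap no annotated exon.
Igfbp6 promoter: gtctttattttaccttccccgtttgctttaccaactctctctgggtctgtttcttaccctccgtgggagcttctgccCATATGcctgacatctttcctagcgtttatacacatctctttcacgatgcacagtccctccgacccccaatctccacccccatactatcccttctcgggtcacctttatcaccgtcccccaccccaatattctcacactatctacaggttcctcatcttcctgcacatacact
The gene itself runs from 101974793 to 101979942 of chromosome 15.

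By a rule of size applied to all genes alike, 0 or 1 of the 9 expressed members passed in each comparison. The rule asked for a ratio above 3-fold and for at least 1 FPKM in the library with the higher value. Between the parietal bones 1 of 9 expressed members passed, *Igf1*, against 8.19% of 13914 genes. Between the frontal bones 0 of 9 passed against 3.89% of 14341 genes, and between the WT bones 0 of 9 against 13.3% of 14214 genes. Between the *Twist1*+/- bones 1 of 9 passed, *Igfbp6*, against 4.09% of 14305 genes.

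At more than 2-fold, 2 members passed between the parietal bones (*Igf1* and *Igfbp6*) against 20.2% of genes, and 1 between the frontal bones (*Igfbp2*) against 7.18%. Between the WT bones 3 passed (*Igf1*, *Igfbp4* and *Igfbp7*, all higher in parietal bone) against 26.9%, and between the *Twist1*+/- bones 3 passed (*Igfbp3*, *Igfbp6* and *Igfbp7*, all higher in parietal bone) against 11.9%. A single gene is a large share of 9, so nothing particular to the members is read from these counts.

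As deposited, the median ratios of the members were farther from 0 between bones than between genotypes, an order that *Gapdh* scaling did not keep. The median log2 ratio of the 9 members was -0.01 between the parietal bones and -0.07 between the frontal bones, beside -0.06 and -0.04 over all genes at or above 1 FPKM, and 0.39 and -0.17 with *Gapdh* scaling. Between WT parietal and frontal bone it was 0.52, with 6 members higher and 3 lower, beside -0.01 over all genes, and 0.08 when the libraries were scaled to *Gapdh*. Between the *Twist1*+/- bones it was 0.34, with 8 higher and 1 lower, beside -0.03 over all genes, and 0.39 with *Gapdh* scaling. Among the 8, *Igf1r* was higher by a log2 ratio of only 0.01. Subtracting the GC trend turned the signs of *Igf1*, *Igf1r* and *Igfbp2* in this comparison. Of all genes, 49.5% were higher in parietal bone between the WT bones and 47.6% between the *Twist1*+/- bones. The 4 comparisons share libraries in pairs, so they are not independent of each other.

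**Figure D2:**
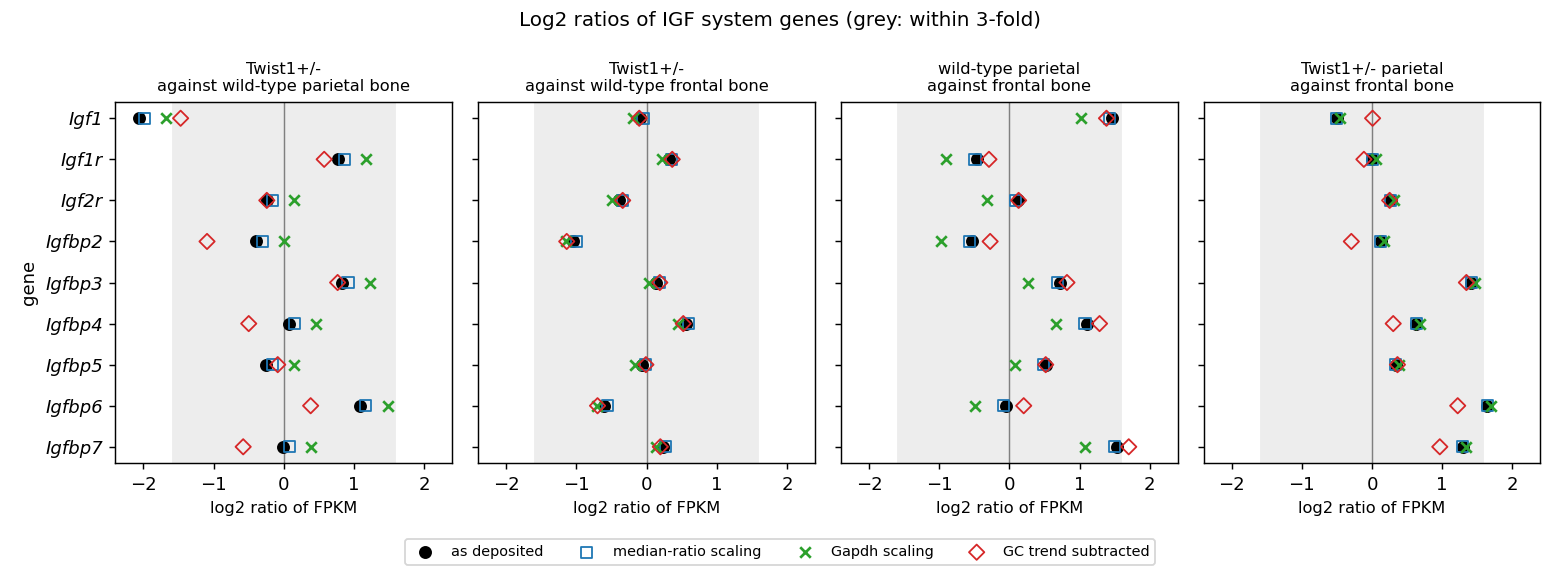
Log2 ratio of FPKM (x axis) of 9 IGF system genes in the 4 comparisons, as deposited and after 3 other treatments of the values, with the grey band marking ratios within 3-fold. As deposited, *Igf1* between the parietal bones (-2.06) and *Igfbp6* between the *Twist1*+/- bones (1.64) lie outside the band, and with the GC trend subtracted both lie inside it while *Igfbp7* between the WT bones (1.70) lies outside.

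**Figure D3:**
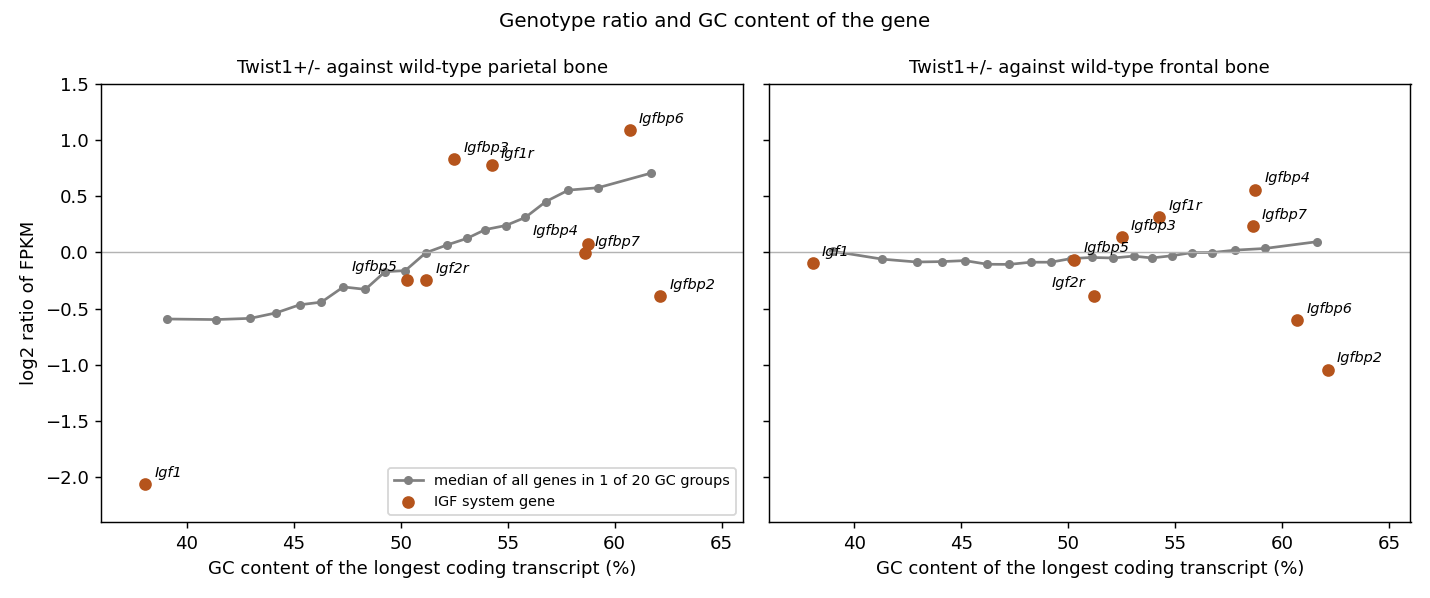
Log2 ratio of *Twist1*+/- to wild type (y axis) against GC content of the longest coding transcript in percent (x axis) for parietal and frontal bone, with 9 IGF system genes as points over the medians of all genes in 20 GC groups. The grey medians run from -0.59 in the lowest to 0.70 in the highest GC group in parietal bone, lie between -0.11 and 0.09 in frontal bone, and *Igf1* (38.1% GC) lies below the line in parietal bone.

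The binding protein transcripts can be read as a pool, whose makeup does not depend on how a library is scaled, though it can move with GC content. The summed FPKM of *Igfbp1* to *Igfbp7* was 525 in WT frontal, 957 in WT parietal, 586 in *Twist1*+/- frontal and 995 in the parietal library labelled *Twist1*+/-. The sum was higher in parietal than in frontal bone, 1.82-fold in WT and 1.70-fold in *Twist1*+/- mice, and it differed 1.04-fold between the parietal and 1.12-fold between the frontal genotypes. *Igfbp4*, *Igfbp5* and *Igfbp7* together made up between 80.8% and 88.9% of it.

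Within the pool the shares shifted by gene. The share of *Igfbp4* was 33.7% in WT frontal, 39.9% in WT parietal, 44.3% in *Twist1*+/- frontal and 40.4% in the parietal library labelled *Twist1*+/-. That of *Igfbp5* was 32.3%, 25.4%, 27.6% and 20.6% in the same order, highest in WT frontal bone. *Igfbp7* held 14.9% and 15.7% in the frontal bones against 23.6% and 22.6% in the parietal bones, so its share separated the bones and not the genotypes. *Igfbp2* held 8.88% in WT frontal bone and between 2.48% and 3.86% elsewhere. *Igfbp3* held 9.69% in the parietal library labelled *Twist1*+/- and between 5.66% and 6.28% elsewhere. *Igfbp6* exceeded *Igfbp2* 1.74-fold in that library, while in the other 3 it was below *Igfbp2*, at ratios from 0.450 to 0.627.

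**Figure D4:**
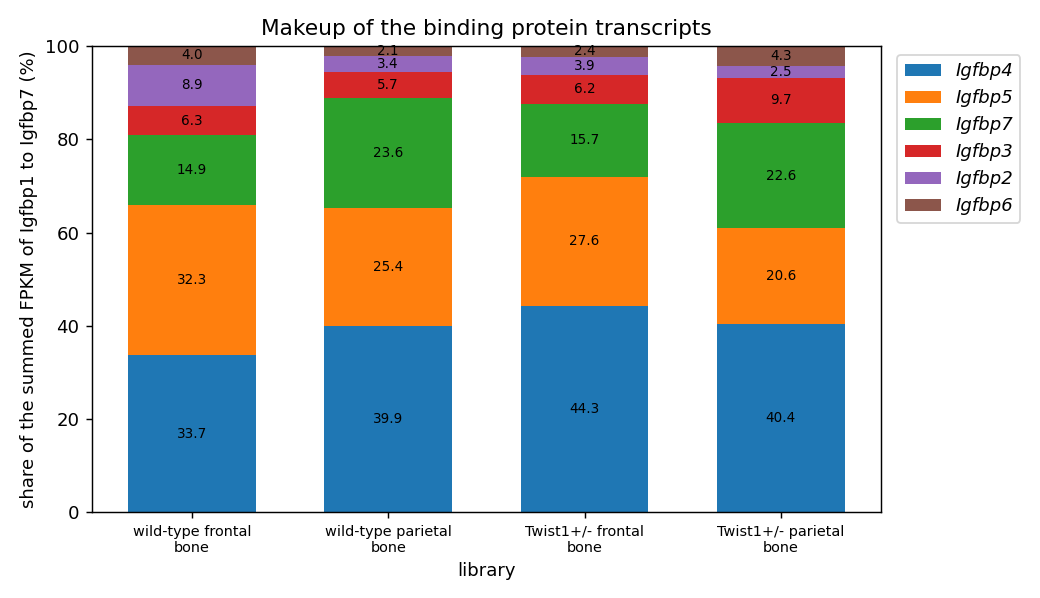
Share of each binding protein gene in the summed FPKM of *Igfbp1* to *Igfbp7* (y axis, percent) in each of the 4 libraries, as stacked bars that carry each share and reach the full pool. *Igfbp7* takes 23.6% and 22.6% in the parietal bones against 14.9% and 15.7% in the frontal bones, and *Igfbp2* takes 8.88% in WT frontal bone.

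Relative to its ligand the pool differed more. The binding protein sum was 18.7 times the level of *Igf1* in WT frontal, 12.3 times in WT parietal, 22.3 times in *Twist1*+/- frontal and 53.6 times in the parietal library labelled *Twist1*+/-. The last was 4.35 times that of WT parietal bone, while the sum itself differed 1.04-fold. With the GC trend subtracted, a treatment of this ratio chosen after seeing the data, it was 2.27 times that of WT parietal bone, and the sum was 1.22-fold lower. *Igf2*, the other ligand gene and an imprinted one, was at 231, 1127, 215 and 364 FPKM in the same order. *Igf2* thus had its highest level in the same library as *Igf1*, and its log2 ratio between the parietal bones was -1.63. With both ligands counted, the sum was 2.02, 0.794, 2.43 and 2.60 times the ligand level, which left WT parietal bone as the one library where ligand transcripts exceeded binding protein transcripts.

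The rest of the pathway was described from 71 genes in 10 roles, all present in the files. Between the parietal bones 64 of them reached 1 FPKM and 4 passed 3-fold (6.25%, beside 8.19% of all genes), 1 higher and 3 lower. At 2-fold 14 passed (21.9%, beside 20.2%). *Igf2* was lower at a log2 ratio of -1.63. *Igfbpl1*, a binding protein relative, was at 2.32 FPKM in WT and 0.508 FPKM in the other library (log2 ratio -2.19), and *Igf2bp3*, which binds *Igf2* mRNA, was at 5.52 and 1.81 FPKM (-1.61). *Klk1*, a kallikrein protease, was higher, at 0.301 and 2.52 FPKM (3.07). Apart from *Igf2* these lie at low FPKM, and with 1 FPKM added to both values 1 of the 64 passed (1.56%, beside 3.29% of all genes). Ratios of pathway genes are as deposited, without the GC trend subtracted. The GC groups nearest *Igf2bp3* (45.8% GC) had median log2 ratios of -0.47 and -0.44 between the parietal bones. The group nearest *Igf2* and *Igfbpl1* (55.8% and 55.7%) had 0.31, and those nearest *Klk1* (51.7%) had -0.004 and 0.07.

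Between the frontal bones 0 of 63 pathway genes passed 3-fold or 2-fold, against 3.89% and 7.18% of all genes, and 0 passed 3-fold with 1 FPKM added, against 1.62%. Between the WT bones 4 of 64 passed 3-fold (6.25% against 13.3%), 15 passed 2-fold (23.4% against 26.9%) and 2 passed 3-fold with 1 FPKM added (3.13% against 6.44%). *Igf2* (log2 ratio 2.29), *Wisp2* (2.90, from 7.22 to 54.1 FPKM), a member of the CCN family, and *Pappa2* (1.77, from 0.341 to 1.16 FPKM), a protease of binding proteins, were higher in parietal bone, and *Klk1* was lower (-2.57). Between the *Twist1*+/- bones 1 of 63 passed (1.59% against 4.09%), *Socs1*, a suppressor of cytokine signalling, from 9.05 FPKM in frontal to 30.3 FPKM in parietal bone (1.74). *Socs1* is rich in GC (63.6%), and the highest GC group had a median log2 ratio of 0.42 in this comparison. At 2-fold 8 passed (12.7% against 11.9%), and with 1 FPKM added 1 passed 3-fold (1.59% against 0.993%).

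Genes downstream of the receptor stayed within 3-fold in the 4 comparisons. The adaptors, of which 9 reached 1 FPKM, the 11 PI3K and Akt genes, the 11 mTOR genes and the 6 FoxO and GSK3 genes gave 0 calls, with median log2 ratios between the parietal bones of 0.06, -0.18, -0.08 and 0.31. *Akt1*, the most abundant of its role, was at 61.3, 73.9, 71.3 and 89.2 FPKM in WT frontal, WT parietal, *Twist1*+/- frontal and the parietal library labelled *Twist1*+/-. *Rps6*, a ribosomal protein that mTOR signalling phosphorylates, was 304 FPKM in WT parietal bone and between 138 and 157 FPKM elsewhere. *Insr*, the insulin receptor, stood between 6.69 and 10.3 FPKM, close to *Igf1r*. *Grb10*, an imprinted adaptor that restrains the receptor, was at 106 FPKM in WT parietal bone, 43.6 and 38.8 FPKM in the frontal bones and 60.6 FPKM in the parietal library labelled *Twist1*+/-. *Htra1*, a protease of binding proteins, and *Kazald1*, a bone matrix relative of them, were higher in parietal than in frontal bone in both genotypes, by log2 ratios of 0.75 and 0.53 in WT and 1.09 and 0.80 in *Twist1*+/- mice. *Bad*, a promoter of cell death that Akt inhibits, was at 24.0, 48.6, 26.7 and 39.6 FPKM, higher in the parietal bones. *Socs2*, a target and brake of growth hormone, lay between 16.4 and 24.3 FPKM.

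**Figure D5:**
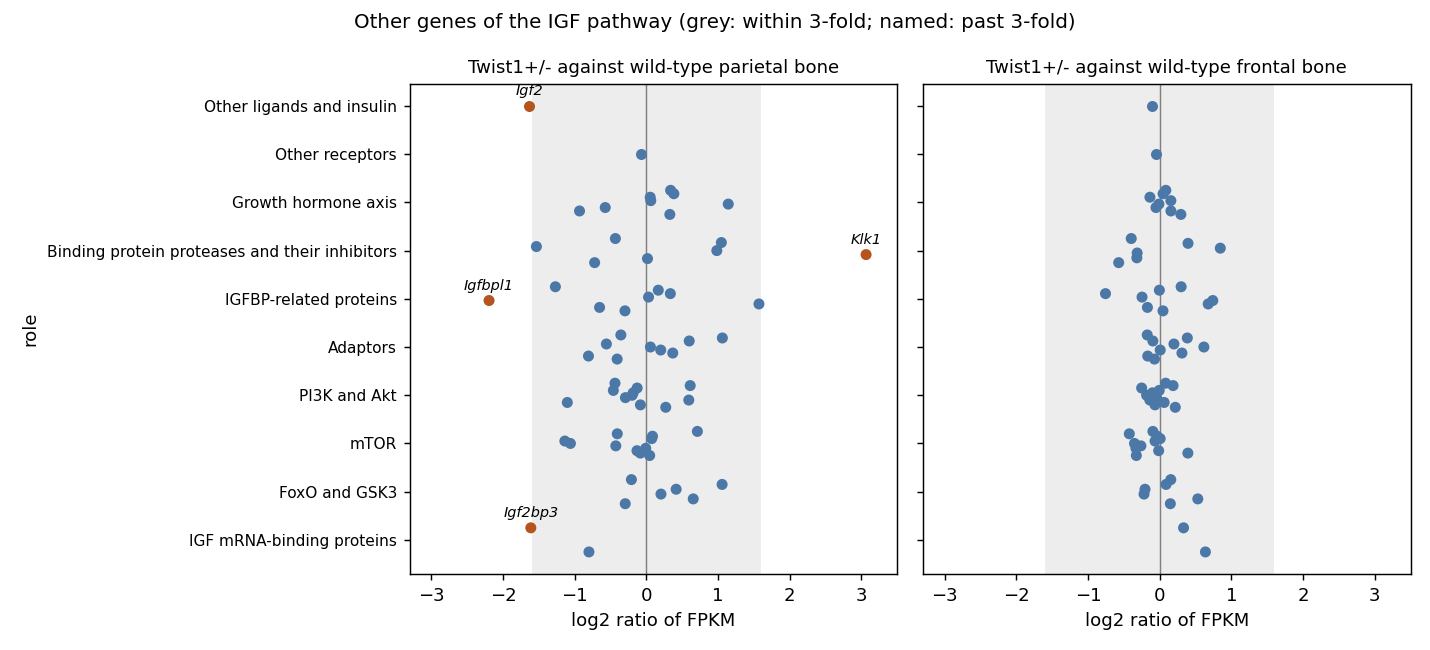
Log2 ratio of FPKM of *Twist1*+/- to wild type (x axis) of pathway genes at or above 1 FPKM, grouped by role (y axis), in parietal and frontal bone, with the grey band marking ratios within 3-fold. In parietal bone *Igf2*, *Klk1*, *Igfbpl1* and *Igf2bp3* lie outside the band, and in frontal bone 0 of 63 genes do.

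For the 3 members with the widest range, the genes with the most similar profile over the 4 libraries were found among 7873 genes. These were above 0 in all 4 libraries and at or above 10 FPKM in at least 1, so genes listed at 0, such as *Col1a1*, were left out. Likeness was measured by the root mean square difference of centred log2(FPKM + 1). Those nearest to *Igf1* were *Rian* (0.155), *Gfra1* (0.158) and *Sgcd* (0.160). Nearest to *Igfbp6* were *Col13a1* (0.141), *5730408K05Rik* (0.169) and *Snord17* (0.178), and nearest to *Igfbp3* were *Malat1* (0.0517), *Tppp3* (0.0801) and *Phlda3* (0.0925). *Rian* followed *Igf1* at 12.1, 41.7, 10.1 and 7.40 FPKM, and *Col13a1* followed *Igfbp6* at 22.4, 25.3, 17.8 and 43.4 FPKM. With 4 libraries, this likeness is a description of these values.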

How the data were processed

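Total RNA of calvarial bones was made into poly(A) libraries by the authors and sequenced as reads of 75 bases. The authors aligned them to mm9 with STAR 2.4.2a and deposited FPKM values from Cuffdiff (Cufflinks 2.2.1), 1 per gene and library. The methods give depth and mapped share as averages over replicates, the scaling used in Cuffdiff and the depth of each library are not given in the sources used here, and so no interval or detection floor is stated. The members and all gene lists were chosen with earlier results of these data known. Libraries were grouped by their labels. Ratios of FPKM were formed without a pseudocount, a gene was called past 3-fold at a floor of 1 FPKM, and no test was possible with 1 library per condition. Alternatives were a 2-fold threshold, a pseudocount of 1 or 0.1 FPKM, no floor or a floor of 10 FPKM, scaling to the median ratio or to *Gapdh*, and subtraction of a GC trend (the median log2 ratio within each of 20 groups of genes by GC content). Gene positions and GC content came from the GENCODE annotation of mm9 and promoter windows from RefSeq. Every pathway gene past 3-fold and the most abundant gene of each role were named. Calling was tested on simulated data with changes well past 3-fold and no GC trend. That checks the code and says nothing of the calls in these libraries. Python 3.11.15, pandas 2.3.3 and NumPy 2.4.6 were used.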

Additional observations from a re-analysis of the deposited data

Results flagged for a closer look

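As deposited, *Igfbp6* moved in opposite directions with genotype in the 2 bones, the parietal library being *Twist1*+/- by its label. Its log2 ratio of *Twist1*+/- to wild type was 1.09 in parietal bone (43.0 against 20.2 FPKM). In frontal bone it was -0.60 (13.8 against 21.0 FPKM), a difference of 1.69 between the bones. With the GC trend subtracted the log2 ratios were 0.38 in parietal and -0.70 in frontal bone. The parietal ratio was then 1.30-fold and no longer passed 1.5-fold. With 1 library per condition the difference between the bones was not tested.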

How the results depend on the processing

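The number of members past 3-fold moved with the setting. At a 2-fold threshold it became 2 between the parietal bones, 1 between the frontal bones, 3 between the wild-type bones and 3 between the *Twist1*+/- bones. With the GC trend subtracted it became 0 between the parietal bones, 1 between the wild-type bones (*Igfbp7*) and 0 between the *Twist1*+/- bones. With no floor it became 1 between the frontal bones and 1 between the wild-type bones, in each case *Igfbp1*, which has a value above 0 in 1 library. With a pseudocount of 1 FPKM it became 0 between the *Twist1*+/- bones, beside 0.993% of all genes. No share of all genes is given for the settings with the GC trend subtracted or no floor, so nothing is read from those counts. The other 22 recomputed counts were as first obtained. Among 36 log2 ratios the sign turned for 5 with the GC trend subtracted, 5 with *Gapdh* scaling, 1 with median-ratio scaling and 0 with either pseudocount, and neither *Igf1* between the parietal bones nor *Igfbp6* between the *Twist1*+/- bones was among them. Pathway genes past the threshold numbered 14 of 64 between the parietal bones (21.9%, beside 20.2% of all genes), 0 of 63 between the frontal bones (beside 7.18%), 15 of 64 between the wild-type bones (23.4%, beside 26.9%) and 8 of 63 between the *Twist1*+/- bones (12.7%, beside 11.9%) at 2-fold. With a pseudocount of 1 FPKM they numbered 1, 0, 2 and 1, beside 3.29%, 1.62%, 6.44% and 0.993% of all genes. The ratio of the binding protein sum to *Igf1* moved from 4.35 to 2.27 between the parietal bones with the GC trend subtracted, and between the *Twist1*+/- bones from 2.41 to 1.44. The shift of all genes under median-ratio scaling stayed under 0.1 on the log2 scale in the 4 comparisons. No paired analysis was possible because each condition has 1 library. Precision is limited by that and by depth, which FPKM values do not give.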
